A study of Mus musculus with 19 samples.

Results

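The circadian clock genes examined here are the 10 core transcripts Bmal1 (also called Arntl), Clock, Per1, Per2, Per3, Cry1, Cry2, Nr1d1, Nr1d2 and Dbp. They were chosen by name, matched to mouse Ensembl gene identifiers through GENCODE, and read in all 19 libraries of a raw count table of 56980 genes. All 10 were among the 18739 genes that passed the filter on low counts and were tested. The libraries came from CD11b+ cells, isolated with magnetic beads from the brains of male mice aged 3 to 4 months, with the olfactory bulb and the cerebellum removed. The mice were *PARK7*/DJ-1 knockout (KO) animals of a gene-trap line backcrossed to C57BL/6NCrl, or wildtype (WT) littermates. Each mouse received either LPS, a bacterial endotoxin that triggers systemic inflammation, at 4 μg/g body weight, or saline (PBS), by intraperitoneal injection 6 h before sacrifice. The groups held 4 WT mice with PBS, 5 WT mice with LPS, 5 KO mice with PBS and 5 KO mice with LPS. The time of day of injection and sacrifice is not given in the sources used here, so the clock phase at which the mice were sampled is not known.

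The molecular clock is a feedback loop of transcription that runs in most mammalian cells. BMAL1 and CLOCK bind E-boxes as a pair and switch on the Per and Cry genes, whose proteins then repress that pair. A second loop has the nuclear receptors REV-ERBα and REV-ERBβ, made by Nr1d1 and Nr1d2, which repress Bmal1, and DBP is an output factor that activates genes through D-boxes. Microglia, the main CD11b+ cells of the brain, carry this clock, and it is known to influence how macrophages respond to endotoxin.

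The short elements through which these factors act were looked up in the 250 bases upstream of each member's canonical start site, on both strands. The elements were the E-box CACGTG, the E′-box CACGTT, the D-box TTATGTAA or TTACGTAA, the ROR element TAGGTCA and the cAMP response element TGACGTCA. Among 14469 promoters of tested protein-coding genes, 7.44% held the E-box, 4.82% the E′-box, 0.726% the D-box, 1.77% the ROR element and 1.94% the cAMP response element. Per1 and Cry1 held the E-box, Cry1, Cry2 and Nr1d1 the E′-box, Per2 and Per3 the D-box, and Dbp the ROR element, whereas no member held the cAMP response element. A match describes the letters in this window and is not a measured binding site.

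The sequences below are shown because they pair members that share an element and moved in opposite directions after LPS: Per2 and Per3 by the D-box, Cry1 and Nr1d1 by the E′-box. Not every such pair did so, since Cry1 and Cry2 share the E′-box and both rose. Dbp, the member with the largest change, is shown with its ROR element. Each is GRCm39 sequence on the strand of the gene, read 5′ to 3′, with the matched elements in capitals. The 250 bases are given for Per2 (chr1:91387047-91387296, minus strand), Per3 (chr4:151129141-151129390, minus strand) and Nr1d1 (chr11:98666160-98666409, minus strand). Of Cry1 (chr10:85020971-85020999, minus strand) and Dbp (chr7:45354313-45354339, plus strand) only the elements and their flanks are given. In Cry1 the first capitals are the E′-box, read on the other strand as in Nr1d1, and the second the E-box.
Per2: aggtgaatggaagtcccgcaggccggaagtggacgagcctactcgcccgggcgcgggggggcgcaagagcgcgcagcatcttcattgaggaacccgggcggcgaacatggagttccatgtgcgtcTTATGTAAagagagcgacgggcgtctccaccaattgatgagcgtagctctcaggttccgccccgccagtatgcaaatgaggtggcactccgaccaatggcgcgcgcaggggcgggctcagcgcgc
Per3: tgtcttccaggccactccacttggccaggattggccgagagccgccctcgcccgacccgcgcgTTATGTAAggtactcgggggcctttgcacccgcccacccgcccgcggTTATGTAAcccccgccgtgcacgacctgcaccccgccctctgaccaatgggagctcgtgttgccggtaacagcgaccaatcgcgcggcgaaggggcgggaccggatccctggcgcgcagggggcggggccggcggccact
Nr1d1: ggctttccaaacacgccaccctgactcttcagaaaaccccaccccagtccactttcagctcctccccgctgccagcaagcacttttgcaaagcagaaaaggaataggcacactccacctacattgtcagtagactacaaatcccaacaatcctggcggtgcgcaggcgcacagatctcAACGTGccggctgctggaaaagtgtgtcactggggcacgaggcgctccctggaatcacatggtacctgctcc
Cry1: gaAACGTGaggtgccggtggtCACGTGgg
Dbp: tggccaaataTAGGTCAgtgtcccgcc

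**Figure D1:**
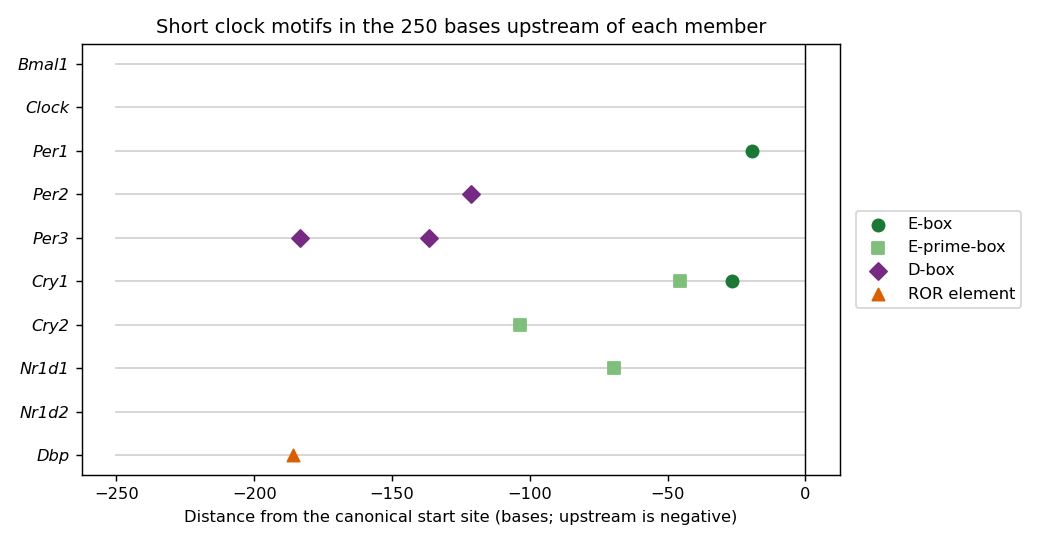
Positions of the elements in the 250 bases upstream of the canonical start site of each of the 10 members, in bases, with 0 at the start site. Per2 and Per3 hold the D-box, Per1 and Cry1 the E-box close to the start site, and Bmal1, Clock and Nr1d2 hold none of the elements searched.

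The libraries held 11936364 to 22788884 counts (median 17211939), and a count of 3 corresponded to 0.139 to 0.256 CPM (counts scaled to a common library size); all member values lay above this. The first principal component held 53.3% of the variance and separated every LPS library from every PBS library. KO LPS replicate 5 stood apart, with a median correlation of 0.922 with its own group. *Park7*, the targeted gene, was lower in KO than in WT by 3.74 on the log2 scale at PBS and by 2.88 after LPS (edgeR quasi-likelihood test, adjusted p = 0.000389 and 0.00679), and the level of 0.457 to 5.38 CPM in KO lay below the 20.6 to 32.1 CPM in WT. The summed level of 10 microglial markers was 24831 to 39842 CPM in the PBS libraries and 10637 to 17121 CPM in the LPS libraries. Of these markers 9 were lower after LPS in each genotype, whereas Itgam was at 238 to 472 CPM and 301 to 451 CPM. The sum of 6 oligodendrocyte markers was 1076 to 9922 CPM with PBS and 558 to 11377.5 CPM with LPS. Those of 6 astrocyte and 6 neuron markers were 307 to 1727 CPM and 14.9 to 156 CPM over all libraries. Inside the groups Nr1d1 had r = 0.616 with the oligodendrocyte sum over the 19 libraries. The summed level of 5 monocyte markers was 27.8 to 62.3 CPM with PBS and 137 to 363 CPM with LPS, and all 5 were higher in both genotypes. That of 8 neutrophil markers was 20.9 to 185 CPM and 100.001 to 453 CPM, with 4 of the 8 higher in WT and 5 in KO. The sum of 6 border-associated macrophage markers was 380.1 to 509 CPM with PBS and 213 to 434 CPM with LPS, with 4 of the 6 lower in both genotypes, and that of 4 B cell markers 7.33 to 12.04 CPM and 1.04 to 4.59 CPM. The endothelial sum was 293 to 896 CPM with PBS and 75.4 to 689 CPM with LPS, with 2 of its 5 markers lower in both genotypes and 1 higher in KO. Inside the groups Per3 had r = 0.704 but rho = 0.439 with the endothelial sum over the 19 libraries. In the PBS libraries r was 0.343, and in the LPS libraries r was 0.798 and rho 0.370. Per1 had r = −0.921 with the endothelial sum in the LPS libraries. With the neuron sum there, r was 0.873 for Per3, −0.923 for Per1 and −0.860 for Per2. KO LPS replicate 5, the library that stood apart, had both the lowest endothelial sum, 75.4 CPM, and the lowest Per3 level, 7.80 CPM. With the endothelial or the oligodendrocyte sum as a covariate, 7 members were called after LPS in each genotype, as without it. Per3 had log2 fold changes of −1.79 to −1.58 in WT and −1.71 to −1.48 in KO over 11 alternatives. Both covariates were among these, and leaving out single mice was not. A count of calls does not measure the part of these 2 sums in the results below, and the part of the other shifts was not tested. In such bulk libraries fewer cells of a type and less RNA per cell cannot be told apart.

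LPS moved 7 of the 10 clock genes in both genotypes: Per2, Cry1 and Cry2 rose, and Per3, Nr1d1, Nr1d2 and Dbp fell. Bmal1, Clock and Per1 did not pass the test. A gene was called at an adjusted p under 0.05 and an absolute log2 fold change of at least 0.5, in edgeR's quasi-likelihood test over all 18739 genes. By that rule, over all tested genes, the share called higher was 18.4% in WT and 20.1% in KO, and the share called lower 17.4% and 19%. The median absolute log2 fold change of the members was 1.19 in WT and 1.09 in KO, beside 0.54 and 0.56 over all genes tested. The WT groups did not overlap for 8 members, beside 37.8% of all genes, and the KO groups for 7 members, beside 32.8%.

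**Figure D2:**
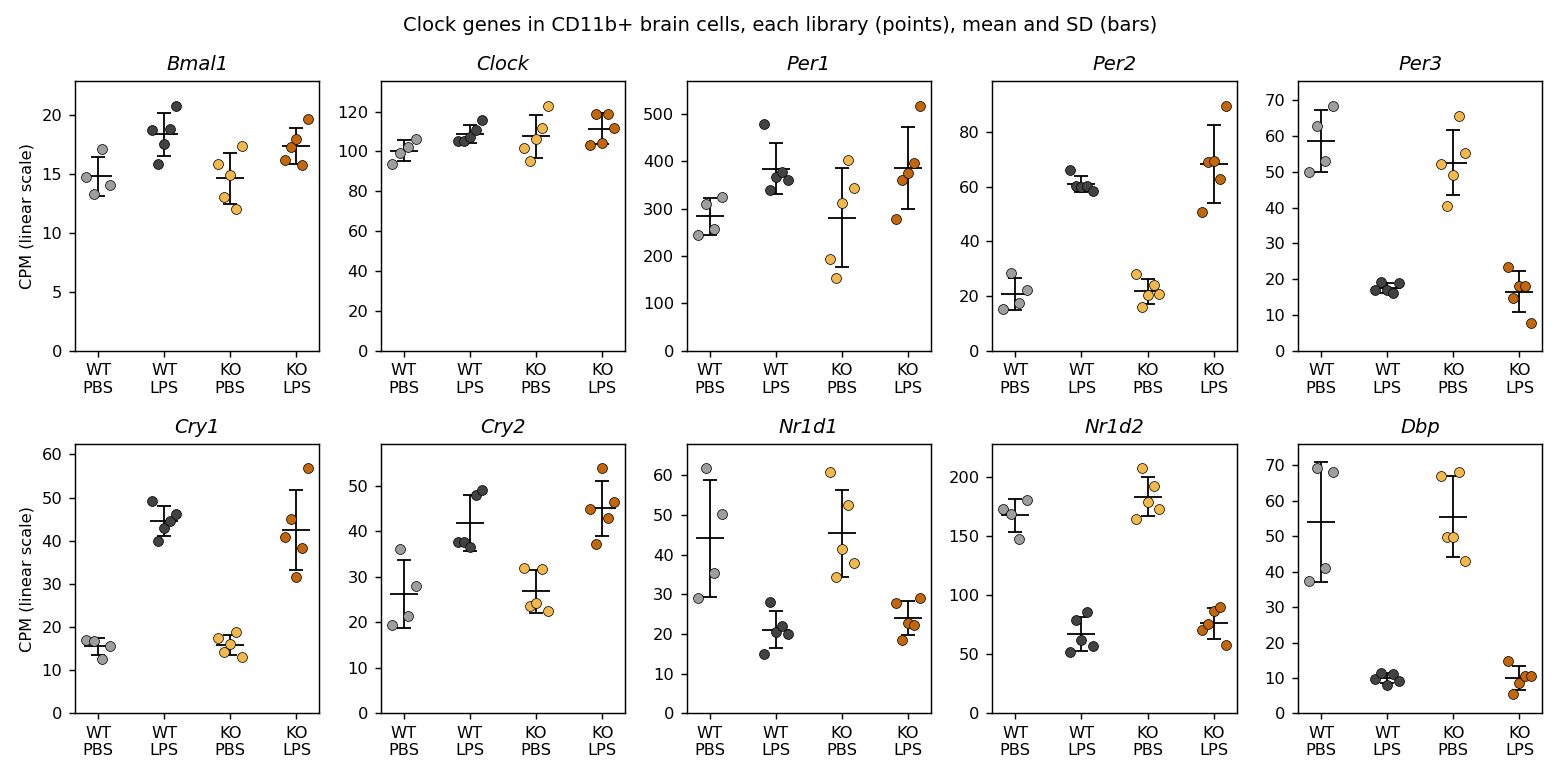
CPM of each of the 10 clock genes (vertical axis, linear scale from 0) in every library of the 4 groups (points), with the group mean and SD. Per2, Cry1 and Cry2 sit higher, and Per3, Nr1d1, Nr1d2 and Dbp lower, in the LPS groups of both genotypes.

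Bmal1 and Clock encode the activating pair. Bmal1 (ENSMUSG00000055116, chr7:112806152-112914735, GRCm39) was at 14.7, 13.3, 17.1 and 14.0 CPM in the WT PBS libraries and at 18.7, 15.8, 17.5, 18.9 and 20.8 CPM in the WT LPS libraries. The KO libraries were at 15.8, 13.1, 14.9, 11.99 and 17.4 CPM with PBS and at 16.2, 17.3, 18.01, 15.8 and 19.6 CPM with LPS. The groups overlapped in both genotypes, and the log2 fold changes of 0.31 ± 0.13 (SE) in WT and 0.25 ± 0.12 in KO did not pass (adjusted p = 0.0651 and 0.111). Clock (ENSMUSG00000029238, chr5:76342860-76452846) moved least, at 93.5 to 106 CPM in WT PBS, 105 to 116 CPM in WT LPS, 95.1 to 123 CPM in KO PBS and 103 to 119 CPM in KO LPS. Its log2 fold changes after LPS were 0.12 (95% interval −0.06 to 0.29) in WT and 0.05 (−0.11 to 0.21) in KO. Exons of Tmem165 on the opposite strand share 2047 of the 17251 exonic bases of Clock, so that its reads too may not be fully separated where the counting ignored strand, and Tmem165 had log2 fold changes of −0.04 and −0.20.

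The 3 Period genes, which encode repressors of that pair, did not move together. Per1 (ENSMUSG00000020893, chr11:68986035-69002300), which glucocorticoids and other acute signals are known to induce, was at 244, 309, 257 and 325 CPM in WT PBS and at 479, 340, 367, 377 and 360 CPM in WT LPS. In KO it was at 193, 154, 312, 402 and 345 CPM with PBS and at 279, 361, 376, 397 and 518 CPM with LPS. The WT groups did not overlap whereas the KO groups did, and neither log2 fold change passed (0.44 ± 0.23, adjusted p = 0.140 in WT and 0.46 ± 0.22, adjusted p = 0.0915 in KO). Per1 passed in KO when either KO LPS replicate 1 or KO PBS replicate 4 was left out, with log2 fold changes of 0.57 and 0.62 (adjusted p = 0.0411 and 0.0252).

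Per2 (ENSMUSG00000055866, chr1:91343700-91387069) was at 15.2, 28.4, 17.3 and 22.2 CPM in WT PBS and at 66.3, 60.2, 59.9, 60.4 and 58.5 CPM in WT LPS. The KO libraries were at 28.2, 16.03, 20.2, 23.9 and 20.7 CPM with PBS and at 50.7, 69.2, 69.3, 62.8 and 89.7 CPM with LPS. Every LPS library lay above every PBS library, and Per2 rose 2.94-fold in WT and 3.13-fold in KO (log2 fold change 1.56 ± 0.19, adjusted p = 2.35e-06, and 1.65 ± 0.18, adjusted p = 3.71e-07). Per3 (ENSMUSG00000028957, chr4:151081373-151129140) went the other way. It was at 49.9, 62.9, 53.0 and 68.5 CPM in WT PBS and at 16.9, 19.3, 17.0, 15.99 and 18.8 CPM in WT LPS. In KO it was at 52.0, 40.6, 49.0, 65.5 and 55.3 CPM with PBS and at 23.3, 14.7, 18.2, 18.2 and 7.80 CPM with LPS. The groups did not overlap in either genotype, and the level fell 3.33-fold in WT and 3.19-fold in KO (adjusted p = 2.48e-06 and 1.87e-06). Per2 and Per3, whose promoters above share the D-box, thus had log2 fold changes of 1.56 and −1.73 in WT.

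The cryptochromes, the partners of the Period proteins in repression, both rose. Cry1 (ENSMUSG00000020038, chr10:84967560-85021252) was at 17.0, 16.8, 12.5 and 15.7 CPM in WT PBS and at 49.3, 40.0, 43.1, 44.5 and 46.2 CPM in WT LPS. The KO libraries were at 17.4, 14.1, 16.1, 18.8 and 13.2 CPM with PBS and at 40.8, 44.98, 31.7, 38.4 and 56.8 CPM with LPS. The groups were apart in both genotypes, with log2 fold changes of 1.52 ± 0.16 in WT and 1.42 ± 0.14 in KO (adjusted p = 2.98e-07 and 1.99e-07). Cry2 (ENSMUSG00000068742, chr2:92233894-92264474) was at 19.5, 36.2, 21.4 and 27.9 CPM in WT PBS and at 37.7, 37.7, 36.6, 48.0 and 49.0 CPM in WT LPS. In KO it was at 31.9, 23.6, 24.3, 31.7 and 22.4 CPM with PBS and at 44.9, 37.1, 53.8, 42.9 and 46.5 CPM with LPS. The groups again did not overlap, though the highest WT PBS library came close to the lowest LPS library, and the rise was smaller, at 1.59-fold in WT and 1.68-fold in KO (adjusted p = 0.00443 and 0.000913).

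Both REV-ERB genes fell. Nr1d1 (ENSMUSG00000020889, chr11:98658752-98666188) was at 29.0, 61.8, 35.5 and 50.2 CPM in WT PBS and at 15.03, 28.1, 20.5, 22.0 and 20.0 CPM in WT LPS. The KO libraries were at 60.9, 34.5, 41.5, 52.4 and 37.8 CPM with PBS and at 27.8, 18.5, 22.7, 22.2 and 29.0 CPM with LPS. The groups did not overlap, by a narrow margin in WT, and the log2 fold changes were −1.06 ± 0.22 in WT and −0.92 ± 0.21 in KO (adjusted p = 0.000762 and 0.0015). Of the 3242 exonic bases of Nr1d1, 1694 also lie in exons of Thra, a thyroid hormone receptor gene on the opposite strand. The strand setting of the counting is not given in the sources used here, so reads of the 2 genes may not be separated, and Thra itself had log2 fold changes of −0.72 ± 0.40 and −0.47 ± 0.38, neither of which passed. Nr1d2 (ENSMUSG00000021775, chr14:4230545-4266624), which shares no exonic base with another annotated gene, was at 173, 168, 147 and 181 CPM in WT PBS and at 51.9, 78.7, 62.0, 85.7 and 57.2 CPM in WT LPS. In KO it was at 164, 207, 179, 192 and 173 CPM with PBS and at 70.2, 75.1, 86.1, 90.2 and 58.1 CPM with LPS. The groups were well apart, and Nr1d2 fell 2.49-fold in WT and 2.41-fold in KO (adjusted p = 7.24e-07 and 4.94e-07).

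Dbp, the output factor, changed most among the 10 members. Dbp (ENSMUSG00000059824, chr7:45354512-45359627) was at 37.5, 69.2, 41.1 and 68.2 CPM in WT PBS and at 9.84, 11.5, 7.95, 11.2 and 9.21 CPM in WT LPS. The KO libraries were at 67.1, 49.8, 49.8, 68.0 and 43.0 CPM with PBS and at 14.7, 5.43, 8.49, 10.7 and 10.5 CPM with LPS. The lowest PBS library lay above the highest LPS library in both genotypes, and the level fell 5.43-fold in WT and 5.57-fold in KO (log2 fold change −2.44 ± 0.25, adjusted p = 2.57e-07, and −2.48 ± 0.24, adjusted p = 1.08e-07). Exons of Sphk2 on the opposite strand share 539 of its 3470 exonic bases, and Sphk2 had log2 fold changes of 0.38 and 0.30, against the direction of Dbp.

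On a per-length scale, as RPKM, which divides CPM by the length of the canonical transcript, Per1 had the highest mean of the members in all 4 groups, though in KO PBS its range of 22.96 to 60.1 overlapped that of Nr1d2, at 29.0 to 36.5. Its mean was 42.4 ± 5.84 (SD, n = 4) in WT PBS and 57.5 ± 8.11 (n = 5) in WT LPS. In WT PBS the order went on with Nr1d2 at 29.5, Dbp at 29.4, Nr1d1 at 16.2, Clock at 10.1, Per3 at 9.74, Cry2 at 6.34, Cry1 at 5.09, Per2 at 3.56 and Bmal1 at 3.47 RPKM. Only Per1 was apart from its neighbour there; each following pair of neighbours had overlapping ranges. In WT LPS Cry1 had the second highest mean, at 14.6 RPKM, with a range that overlapped that of Nr1d2, Dbp had moved to 5.41 RPKM, and Per3 was lowest at 2.93 RPKM.

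The genotypes were compared for the same genes at each treatment. No member differed between KO and WT: 0 of 10 were called at PBS and 0 of 10 after LPS, at an unadjusted p under 0.05 with an absolute log2 fold change of at least 0.5, and 0 had an unadjusted p under 0.05 in the edgeR quasi-likelihood test. By that rule 0.8% of all tested genes were called at PBS and 1.31% after LPS, and at an adjusted p under 0.05 the shares were 0.00534% and 0.0107%. The log2 differences, KO minus WT, ranged from −0.16 to 0.13 at PBS and from −0.10 to 0.19 after LPS. The intervals set how large a difference the data allow. For Clock at PBS the 95% interval ran from −0.07 to 0.27 and for Dbp from −0.46 to 0.54. After LPS it ran from −0.20 to 0.52 for Per2 and from −0.26 to 0.63 for Nr1d1. The interaction of genotype and LPS, which asks whether the LPS response differed between genotypes, was called for 0 members and for 0% of all genes (180 genes at an unadjusted p under 0.05). Its smallest p among the members was 0.567, for Clock, and its widest interval, for Dbp, ran from −0.74 to 0.66.

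**Figure D3:**
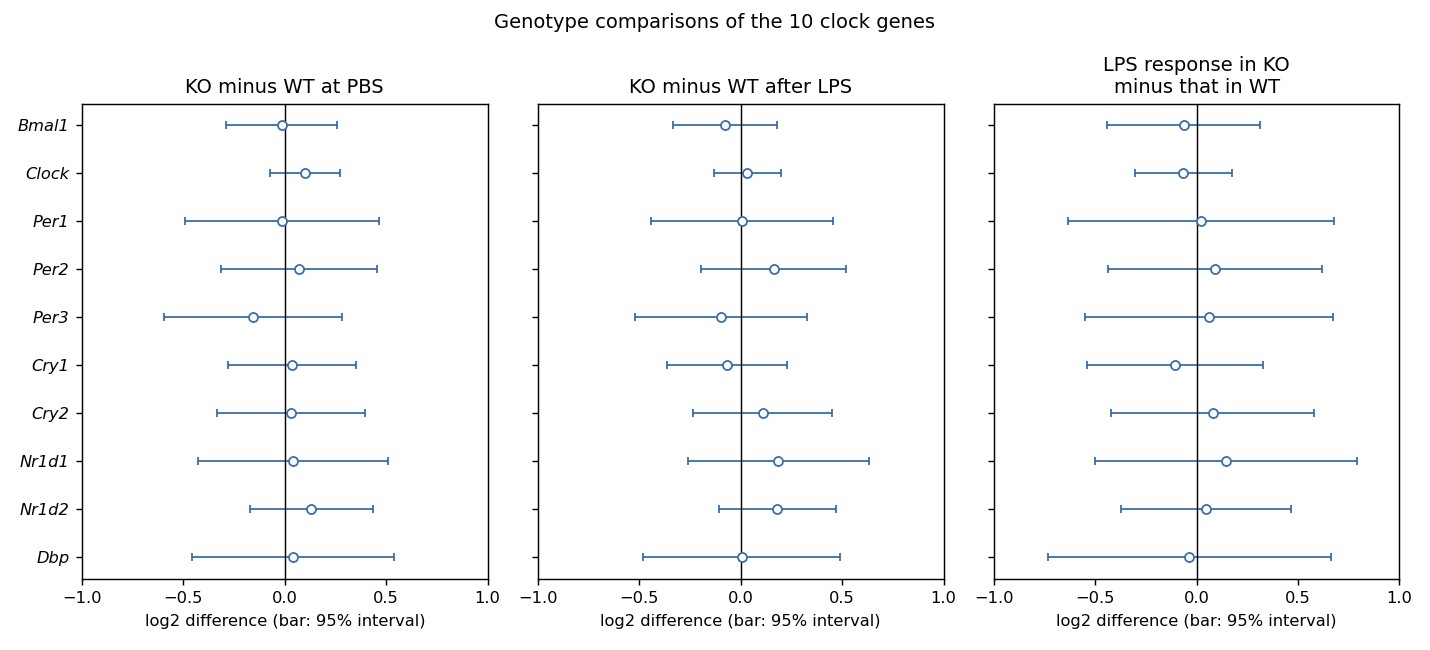
Log2 differences (horizontal axis) of the 10 clock genes between KO and WT at PBS, between KO and WT after LPS, and between the LPS responses of the genotypes, with 95% intervals from the edgeR fit. Every interval includes 0, and the widest is that of Dbp in the interaction.

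Per3 lies on the chromosome of the targeted gene, 82469 bp from *Park7* (chr4:150981579-150998903), a region that a backcross can carry along from the donor strain. Its KO minus WT difference was −0.16 (95% interval −0.60 to 0.28) at PBS and −0.10 (−0.52 to 0.33) after LPS. Of 47 other tested genes within 2 Mb of *Park7*, 3 were called at PBS and 1 after LPS by the unadjusted rule above. That rule called 0.8% and 1.31% of all tested genes. At an adjusted p under 0.05, 0 of the 47 passed at PBS and 1 after LPS. The gene called after LPS was Tnfrsf9, 115 bp from *Park7*, at a log2 difference of −3.67 ± 0.53 (edgeR quasi-likelihood test, adjusted p = 0.0129).

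Among 22 other genes of the clock and its outputs, 9 were called after LPS in each genotype, and they were the same 9 genes, with 4 higher and 5 lower (40.9% of the list, close to the 35.9% in WT and 39.1% in KO called in either direction over all tested genes). Nfil3, which represses through the same D-boxes that DBP activates, had the largest change. It was at 5.00, 4.18, 5.65 and 6.40 CPM in WT PBS and at 104, 87.3, 107.9, 162 and 140 CPM in WT LPS, a log2 fold change of 4.50 ± 0.25 (adjusted p = 3.73e-10), with 4.21 ± 0.22 in KO (adjusted p = 1.11e-10). Tef and Hlf, the activators related to DBP, fell by 0.98 and 1.75 on the log2 scale in WT and by 1.09 and 1.59 in KO. With Dbp, all 3 activators of this family fell while their repressor rose. Nampt, an enzyme of NAD+ synthesis, rose by 1.91 in WT and 1.76 in KO, and Timeless by 1.53 and 1.15. Csnk1e, a kinase of the Period proteins, had log2 fold changes of −1.42 and −1.50, and Usp2, a deubiquitinase, of −1.12 and −0.98. Bhlhe40, a repressor at E-boxes, rose by 0.90 in both genotypes, and Fbxl21, a ligase subunit that acts on cryptochromes, fell by 1.29 and 1.12, but both lost their calls in each genotype when certain single mice were left out, with adjusted p up to 0.122 for Bhlhe40 and 0.120 for Fbxl21. The groups overlapped for Bhlhe40 and Fbxl21 in both genotypes and for Timeless in KO. No gene of this list was called between KO and WT or in the interaction.

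**Figure D4:**
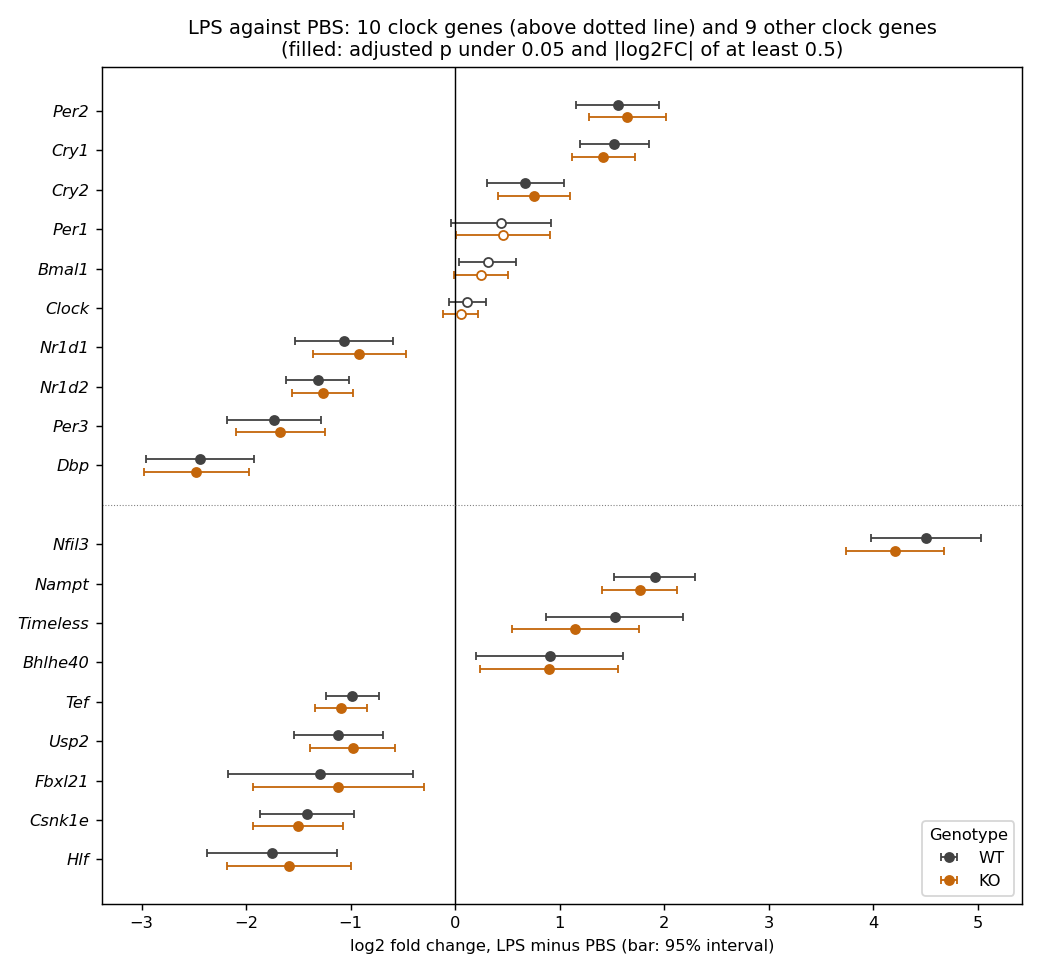
Log2 fold change after LPS (horizontal axis) with its 95% interval in WT and KO for the 10 members, above the dotted line, and the 9 other clock genes called in both genotypes, below it; filled points passed the call. The 2 genotypes lie close to each other for each gene, from −2.48 for Dbp in KO to 4.50 for Nfil3 in WT.

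Mice of one group differed in clock gene levels, and the members were therefore compared across mice as deviations of log2 CPM from their group means. Over the 19 libraries and 45 pairs of members, 1 pair passed: Nr1d1 and Dbp deviated together, with Pearson's r = 0.777 (two-sided permutation test within groups, p = 0.00042, adjusted p = 0.0189) and Spearman's rho = 0.772 (permutation p = 0.0021, adjusted p = 0.0940). Without the 2 libraries farthest from the median of Nr1d1, r was 0.745. The next pairs, Cry2 with Nr1d1 (r = 0.722) and Cry2 with Dbp (r = 0.661), did not pass (permutation test, adjusted p = 0.118 for both).

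Among the 9 PBS mice 6 pairs passed by Pearson's r in the permutation test: Per2 with Nr1d1 (r = 0.974), Cry2 with Nr1d1 (0.967), Cry2 with Dbp (0.949), Nr1d1 with Dbp (0.934), Per2 with Cry2 (0.920) and Per1 with Per3 (0.811). WT PBS replicates 2 and 4 and KO PBS replicates 1 and 4 were high in Per2, Cry2, Nr1d1 and Dbp alike. No pair passed by Spearman's rho there, where the smallest adjusted permutation p was 0.0558. Among the 10 LPS mice 0 pairs passed, and the difference between the treatments was not tested. The summed level of 5 endothelial markers moved with these genes among the PBS mice, with r = 0.861 for Nr1d1, 0.849 for Per2, 0.821 for Cry2 and 0.769 for Dbp. Among the LPS mice the same r was 0.229 for Nr1d1, −0.841 for Per2, −0.06 for Cry2 and 0.133 for Dbp. The microglial marker sum moved the other way among the PBS mice, with r = −0.669 for Nr1d1, −0.736 for Per2, −0.627 for Cry2 and −0.582 for Dbp, and with −0.814 for Per1 and −0.877 for Per3. Other sums moved with the same 4 genes among the PBS mice: r ranged from 0.662 to 0.777 for the astrocyte sum, from 0.551 to 0.792 for the T and NK cell sum, which was at most 1.52 CPM, and from −0.778 to −0.439 for the border-associated macrophage sum. It ranged from 0.478 to 0.621 for the neuron sum, from 0.461 to 0.605 for the oligodendrocyte sum, from −0.631 to −0.620 for the B cell sum and from −0.739 to −0.504 for the total counts of the library. The part of depth and of these sums, other than the endothelial and oligodendrocyte ones, in the covariation was not tested. With the endothelial sum removed among the PBS mice, r of Nr1d1 and Dbp was 0.838 (permutation test, adjusted p = 0.118). With the endothelial sum removed from the deviations, r of Nr1d1 and Dbp over all libraries was 0.747 (permutation test, adjusted p = 0.0723), and with the sum of 6 oligodendrocyte markers removed it was 0.737 (adjusted p = 0.0760), so that the call was lost. The animal number, whose link to date or litter the labels do not state, moved with Clock at r = 0.673 over the 19 mice. Its r with Clock was 0.886 among the 9 PBS mice and 0.484 among the 10 LPS mice. With Bmal1 its r was 0.314 among the PBS mice and 0.6925 among the LPS mice.

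**Figure D5:**
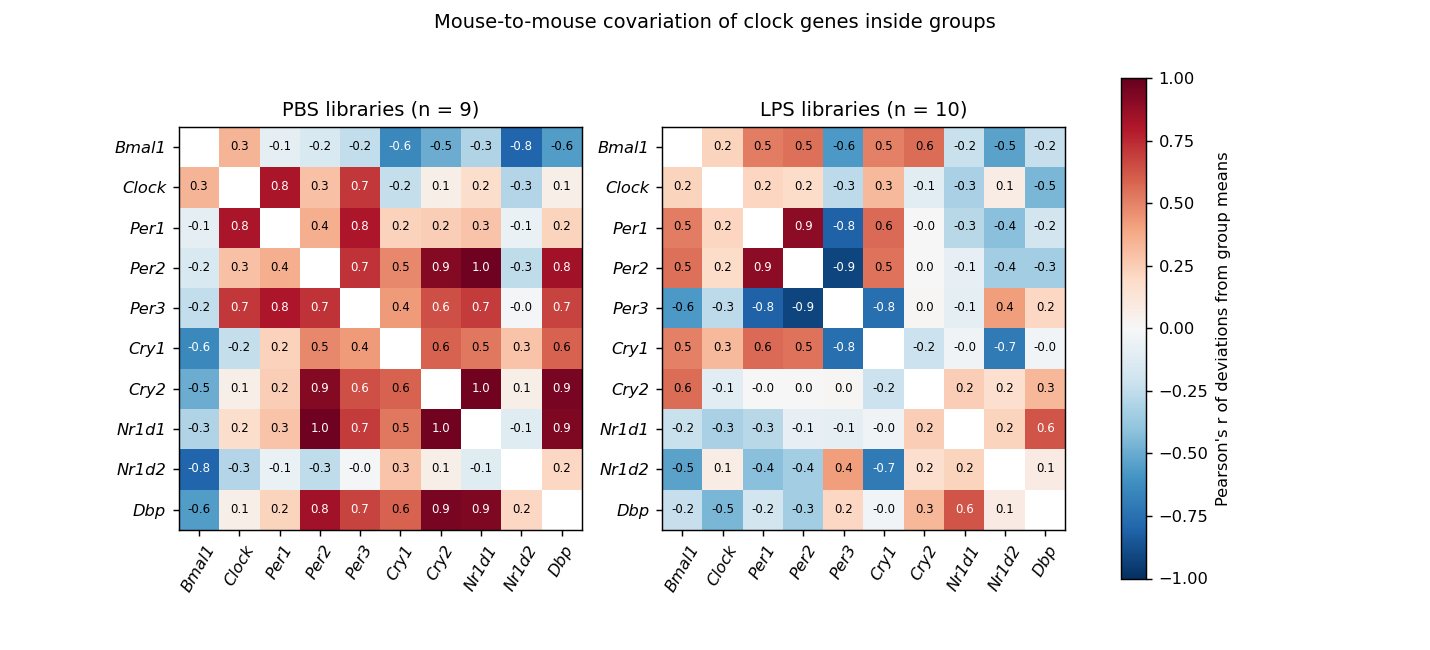
Pearson's r between each pair of the 10 clock genes, of deviations of log2 CPM from the group means, in the 9 PBS libraries (left) and the 10 LPS libraries (right), with red for positive and blue for negative r. At PBS every pair among Per2, Cry2, Nr1d1 and Dbp is red; after LPS r is 0.626 for Nr1d1 with Dbp, 0.331 for Cry2 with Dbp and 0.248 for Cry2 with Nr1d1, and from −0.349 to 0.000674 for Per2 with the other 3.

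The genes whose deviations were most like those of Dbp, over 18738 other tested genes and 19 libraries, were Cfap161, Rab3b, Pard6a, Hspa2 and Tpm2, with r from 0.783 to 0.821, and Nr1d1 ranked 7 and Cry2 ranked 90. Those most like Bmal1 were Gm38329, Nle1, Slc39a2, Csrnp2 and Ik, with r from 0.721 to 0.767. Some of these genes were weakly expressed. Median log2 CPM was −0.80 for Cfap161 and −0.86 for Rab3b, with lowest values of −3.08 and −2.17. It was −0.87 for Gm38329 and 0.63 for Slc39a2, with lowest values of −2.61 and −0.42. The part of counting error in their likeness was not tested. Among the clock genes Nfil3 ranked 24 for likeness to Bmal1, with r = 0.674, and Nr1d2 was 139 from the other end, with r = −0.545.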

How the data were processed

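RNA of CD11b+ cells from 19 mice was sequenced as stranded total RNA after ribosomal depletion. Reads were trimmed with Cutadapt and aligned with STAR 2.7.9a to GRCm39, per the labels and the study's methods, and the authors deposited raw counts of reads per Ensembl gene, not normalized; the strand setting of the counting is not given in the sources used here. Of 56980 genes, 56236 were named through GENCODE mouse release M39, and 0 columns could not be mapped to a sample. Members and gene lists were chosen with earlier results of these data known. The genes named are the 10 members, the other clock genes called in both genotypes, the 5 genes most like Bmal1 and Dbp, overlapping genes, *Park7* and its neighbours; Tnfrsf9 was picked from those neighbours after its values were seen. Values of some listed genes are not reported here.

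Genes were kept by filterByExpr (minimum count 10, minimum total 15), scaled by TMM and tested in one edgeR 4.0.16 quasi-likelihood fit of the 4 groups in R 4.3.3, with Benjamini-Hochberg adjustment over 18739 genes; the script was tested on simulated data. The study's own thresholds were used. CPM uses TMM-scaled library sizes. Deviations are of log2 CPM with a prior count of 2, tested with 100000 permutations within groups. No 2 libraries of the same group agreed within sampling noise. Nothing says whether mice of a group shared a litter or day, so p-values measure the spread between these mice. The interval and the limit of 3 counts cover the fitted spread and counting error only. Alternatives included DESeq2 1.42.0, its size factors, other filters, covariates, the replicate block and leaving out each mouse.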

Additional observations from a re-analysis of the deposited data

Results flagged for a closer look

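In 40 screens of 1 member in 1 group, 2 had a library far from the others, and chance alone gives about 1 in 20. In WT LPS replicate 1, Per1 was at 479 CPM, beside 340 to 377 CPM in the other WT LPS libraries. In the same library Per2 was at 66.3 CPM, beside 58.5 to 60.4 CPM. With this library left out, 7 members were called after LPS in WT, as with it. No member's LPS response differed between the genotypes in the test of the interaction.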

How the results depend on the processing

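The counts of members called after LPS were 7 in WT under every alternative run, and 7 to 8 in KO. The count of 8 came from Per1, without KO LPS replicate 1 or without KO PBS replicate 4. The counts of members called between KO and WT, and in the interaction, were 0 under every alternative run. The number of correlated member pairs, 1 over all libraries, was 0 in the 10 LPS libraries alone, 6 in the 9 PBS libraries alone, 3 in animals numbered up to 600, and 0 with the oligodendrocyte or the endothelial marker sum removed, the last 2 chosen after seeing the data. It was 1 without KO LPS replicate 5, also chosen after seeing the data. The cause of these shifts was not tested.

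The replicate numbers were not taken to pair the samples, since not every same-numbered pair had a correlation of deviations over 0.1. It ranged from −0.04 to 0.576 (mean 0.325) for LPS in WT, where 2 of 4 libraries correlated best with their own number, and from 0.03 to 0.544 (mean 0.254) for LPS in KO, where 3 of 5 did. It ranged from −0.29 to 0.299 (mean −0.006, 2 of 4) for KO against WT at PBS and from −0.57 to 0.3002 (mean −0.102, 1 of 5) after LPS. With the replicate number as a block, members called after LPS were 7 in WT and 7 in KO, those called between genotypes and in the interaction were 0, and correlated pairs were 1. Over all genes the block moved the calls from 6721 to 6468 for LPS in WT, from 7323 to 7277 in KO, from 150 to 234 for KO against WT at PBS and from 245 to 232 after LPS.

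Bhlhe40 lost its call in WT without WT LPS replicate 2, 3 or 4 or WT PBS replicate 1 or 3, and in KO without KO LPS replicate 1 or 3 or KO PBS replicate 2 or 4. Fbxl21 lost it in WT without WT LPS replicate 3 or WT PBS replicate 2, and in KO without KO LPS replicate 1 or 5, KO PBS replicate 5, or the animals numbered above 600. Calls were also gained after LPS under alternatives other than leaving out single mice. Npas2 gained a call under 1 of 10 such alternatives in WT and 1 of 10 in KO, and Rora under 1 of 11 in KO.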
